A study of Mus musculus with 6 samples.

Results

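The NuRD (nucleosome remodelling and deacetylase) subunits were followed at the RNA level in regulatory T cells (Treg, isolated as CD4+CD25+ cells) of Balb/c mice, in cells from wild-type mice and from mice of genotype MBD2-/-. The complex was represented by 10 genes: Chd3, Chd4, Hdac1, Hdac2, Mta1, Mta2, Mta3, Rbbp4, Rbbp7 and Gatad2a. All probe sets were taken whose platform annotation names exactly 1 of these genes, and 18 such probe sets were found for 9 of the 10 genes, among 20380 probe sets and 12393 genes with a single symbol. Chd3 had no such probe set and was not analysed here. All 18 probe sets passed the filter on low values, which left 13576 probe sets in the test. Each group had 3 arrays. The samples are described as independent preparations of magnetically separated cells, and the labels state no age, no sex and no number of mice per sample. The genotype label is that of the animal, so it holds for cells other than Treg too.

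NuRD joins 2 enzyme activities in 1 repressor: an ATP-driven motor of the CHD family slides nucleosomes, and a pair of class I histone deacetylases removes acetyl groups from histone tails. MTA proteins are the scaffold that holds the deacetylases and the histone-binding proteins RBBP4 and RBBP7, and GATAD2 proteins link this part to the CHD motor. The complex is brought to methylated DNA by MBD2, while MBD3 takes the place of MBD2 in other copies of it. In lymphocytes it also works with DNA-binding proteins of the Ikaros family.

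None of the 9 measured subunits passed the threshold of adjusted p under 0.05 in knockout against wild-type Treg, either with all 6 arrays or with the 5 arrays that remain without wild-type replicate 3. By the brightest probe set of each gene, the sign of the difference turned from positive to negative when wild-type replicate 3 was left out for the catalytic core (Chd4, Hdac1, Hdac2), the scaffold genes Mta1 and Mta2, the histone-binding genes Rbbp4 and Rbbp7, and Gatad2a. Mta3 was negative in both fits. Gatad2a, which encodes the subunit that bridges the MBD protein and the CHD motor, was lower on all 3 knockout arrays than on wild-type replicates 1 and 2 with each of its 4 probe sets, an order that 31.8% of all tested probe sets had. Over its 4 probe sets the log2 difference ran from -0.50 to -0.21 with 5 arrays and from -0.47 to 0.30 with 6, where 2 of the 4 were above 0. The 2 dimmest lie close to the cutoff of the filter on low values, and on the dimmest every knockout value was under it.

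The targeted gene was checked first. The brighter Mbd2 probe set was at 8.80, 8.66 and 6.93 on wild-type replicates 1, 2 and 3 and at 5.93, 5.71 and 6.14 on knockout replicates 1, 2 and 3, so every knockout array lay below every wild-type array. In the limma fit the log2 difference was -2.21 (SE 0.52, adjusted p = 0.548) with 6 arrays and -2.80 (SE 0.15, adjusted p = 0.0019) with 5. The second Mbd2 probe set was at 6.70, 6.92 and 6.38 in wild type and at 4.57, 4.68 and 4.64 in knockout. Its log2 difference in the limma fit was -2.04 (SE 0.23, adjusted p = 0.062) with 6 arrays and -2.18 (SE 0.11, adjusted p = 0.0017) with 5. Both probe sets were thus lower on every knockout array. The labels do not say which part of Mbd2 is deleted, so the place of the probe sets relative to it is not known.

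One array, wild-type replicate 3, was unlike the remaining 5, in the subunits as elsewhere. Across probe sets its Pearson correlation with the others was 0.749 to 0.767, against 0.956 to 0.997 among the remaining pairs. It was the lowest of the 6 arrays for 16 of the 18 subunit probe sets (88.9%), and for 63.8% of all tested probe sets. The median distance to the mean of wild-type replicates 1 and 2 was -1.37 for the subunits and -0.74 for all tested probe sets. Over the tested probe sets within the subunits' range of that mean (5.32 to 10.49) it was -0.90, and 78.8% of these lay below, against 94.4% of the subunits. This range held 11676 of the 13576 tested probe sets, so it matches the subunits' level only loosely. On wild-type replicate 1 the median was 7.92 over the subunits and 6.96 over all tested. Values on wild-type replicate 3 were also less spread, with an SD of 1.36 against 1.78 to 1.83 on the other arrays. Knockout replicate 2 was the next to differ, and was the lowest knockout array for 14 of the 18 (77.8%), against 55.4% of all tested. Each subunit is therefore given with 6 arrays and without wild-type replicate 3 (5 arrays), and, where knockout replicate 2 bears on the value, without both (4 arrays, a repeat added after the data were seen).

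The labelled cell type was checked against marker genes. Foxp3, which defines Treg, lay between 6.62 (knockout replicate 2) and 8.83 over the 6 arrays. Of 8 tested T cell and Treg markers, 8 were lower in knockout with 5 arrays (median log2 difference -0.76), 6 of them at an unadjusted p under 0.05, and 0 passed the threshold in the limma fit. With 5 arrays 59.9% of all tested genes were lower, and 14.6% of all tested probe sets were lower at that p. With 6 arrays 7 of the 8 markers were lower, with a median of -0.46, against 35.7% of all tested genes. Cd3d lay between 10.79 and 11.77, Cd3e between 9.94 and 10.90, and Cd3g between 10.02 and 11.33. The summed linear signal of 9 such markers, as log2, was 12.48 to 13.53 in wild type and 12.36 to 13.04 in knockout, lowest on knockout replicate 2. Of the markers tested, 10 of 10 neutrophil and granulocyte genes, 9 of 9 monocyte and macrophage genes and 8 of 8 B cell genes were higher in knockout in both fits. Of these, 6, 2 and 1 passed the threshold with 5 arrays, against 1.58% of all genes tested. The summed granulocyte signal, as log2 over 10 genes, was 9.29 to 10.60 in wild type and 14.54 to 15.07 in knockout. The summed monocyte signal over 10 genes was 8.46 to 9.26 and 11.46 to 12.70, and the summed B cell signal over 9 genes was 9.60 to 10.75 and 11.62 to 12.67. For CD8 T and NK cell markers the sums over 9 genes were 9.36 to 9.99 and 10.64 to 11.80. By these sums knockout replicate 2 was the highest array in each of the 4 lists, though some granulocyte genes were lower on it than on the other knockout arrays. Erythroid markers, over 5 genes, summed to 8.50 to 8.87 and 8.30 to 8.75. The part of these other cells, and of the lower T cell markers, in the subunit differences was not tested. In bulk RNA, fewer cells of a type and less RNA per cell cannot be told apart.

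The subunit genes have CpG-rich starts, which is shown here because the missing protein reads methylated CpG; the arrays measured RNA and no methylation. RefSeq's table of gene starts (build GRCm38.p6) held 9 starts for 7 of the 9 measured genes. In the 250 bases upstream, these had 12 to 39 CG dinucleotides (a motif that reads the same on both strands), with a median of 24. Over all 32851 starts in the table the median was 6, and 33.5% of them had at least 12. The fewest stood before the first start of Chd4 (12) and the most before Mta1 (39). Gatad2a, whose 4 probe sets all had a negative difference with 5 arrays, had 18 and 20 before its starts. Rbbp7, the gene of the one probe set with a positive difference there (0.09), had 34, and its brighter probe set was at -0.16. All probe sets of Mta1 and Chd4 were negative there too. Gatad2a and Rbbp7 were picked by the sign of these differences, and a relation of CG count to direction was not tested. The upstream windows of Gatad2a and Rbbp7, 5′ to 3′ on the gene's strand with each CG in capitals, are given as examples. The Gatad2a windows lie on the minus strand at chr8:69996385-69996634 and chr8:69974384-69974633, and that of Rbbp7 on the plus strand at chrX:162760122-162760371.
Gatad2a start 1: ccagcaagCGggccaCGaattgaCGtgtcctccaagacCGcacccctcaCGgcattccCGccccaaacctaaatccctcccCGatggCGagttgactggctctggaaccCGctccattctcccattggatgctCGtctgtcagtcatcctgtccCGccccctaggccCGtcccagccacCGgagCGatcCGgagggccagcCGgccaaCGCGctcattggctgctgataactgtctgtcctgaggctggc
Gatad2a start 2: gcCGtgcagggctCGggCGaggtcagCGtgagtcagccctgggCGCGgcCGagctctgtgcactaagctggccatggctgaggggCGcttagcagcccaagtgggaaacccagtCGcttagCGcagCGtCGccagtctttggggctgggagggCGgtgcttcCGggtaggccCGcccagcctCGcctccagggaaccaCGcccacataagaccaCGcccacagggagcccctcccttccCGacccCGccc
Rbbp7: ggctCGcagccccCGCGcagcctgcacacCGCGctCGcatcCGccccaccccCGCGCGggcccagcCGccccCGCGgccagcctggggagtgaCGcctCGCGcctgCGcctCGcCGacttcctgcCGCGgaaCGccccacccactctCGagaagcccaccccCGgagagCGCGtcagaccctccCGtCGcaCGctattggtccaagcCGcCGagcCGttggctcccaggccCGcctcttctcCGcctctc

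**Figure D1:**
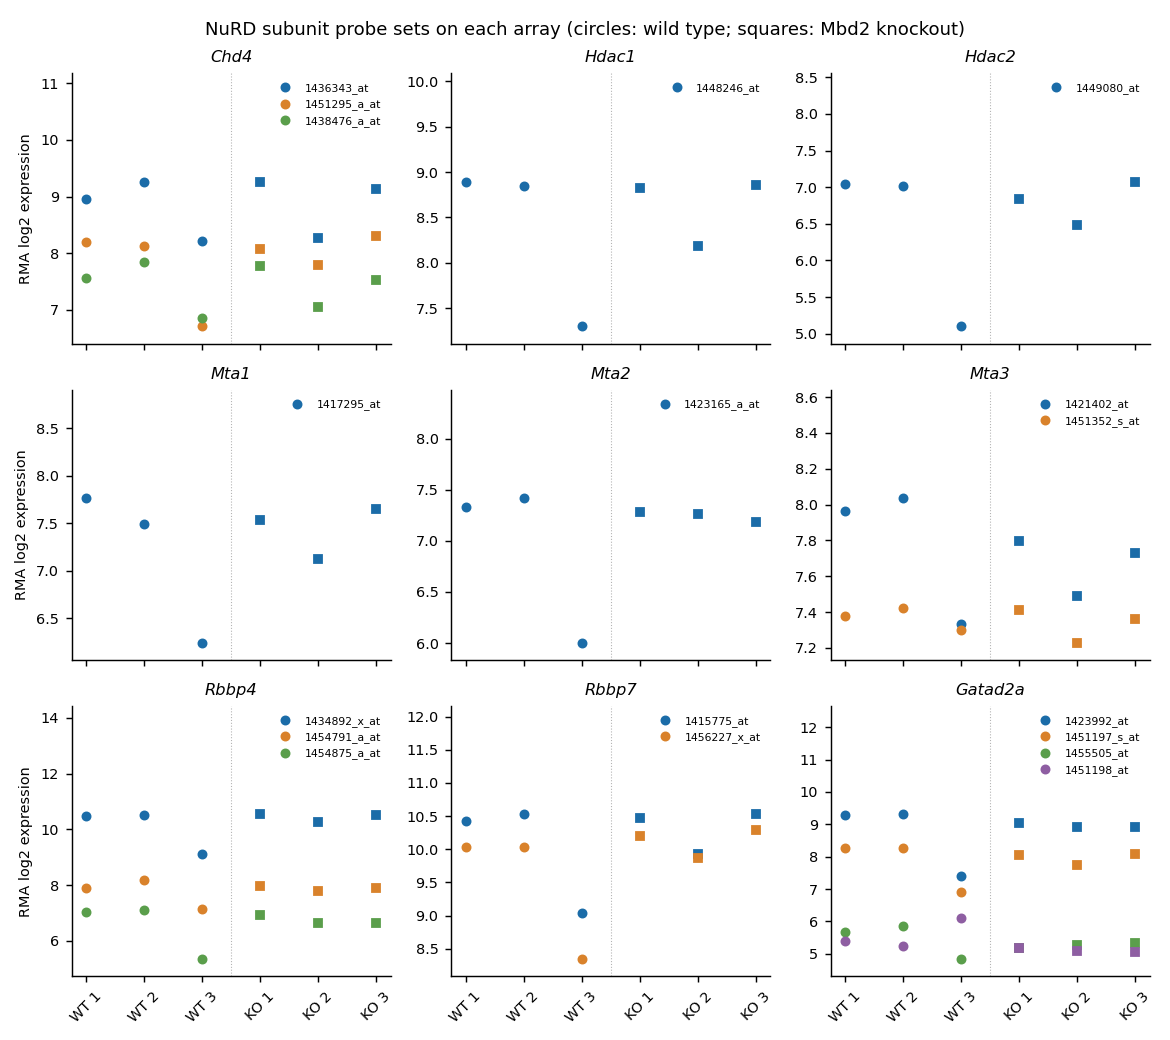
Deposited RMA log2 expression (vertical axis, each panel with its own range) of the 18 NuRD subunit probe sets on the 3 wild-type arrays (circles) and the 3 Mbd2 knockout arrays (squares); colours mark probe sets of 1 gene. Wild-type replicate 3 is the lowest array for 16 of the 18 probe sets.

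With 6 arrays, 0 of the 18 probe sets passed the threshold in the limma fit, against 0.103% of all probe sets tested, and 0 had an unadjusted p under 0.05, against 4.08%. The median log2 difference, knockout minus wild type, was 0.26 over the subunits (range -0.47 to 0.65) and 0.15 over all tested probe sets. With 5 arrays, again 0 of 18 passed, against 1.4% of all tested. The median was then -0.22 (range -0.50 to 0.09), against -0.06 over all tested. An unadjusted p under 0.05 was reached by 4 of the 18, all lower in knockout, against 14.6% of all tested in that direction. These 4 were a probe set each of Mta3 and Rbbp4 and a pair of Gatad2a. Adjusted p under 0.1 was reached by 1 of the 18, a Gatad2a probe set, against 3.52% of all tested that were lower. All 18 intervals at 95% excluded a change of 2-fold in either direction with 5 arrays, while 5 of 18 did so with 6.

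**Figure D2:**
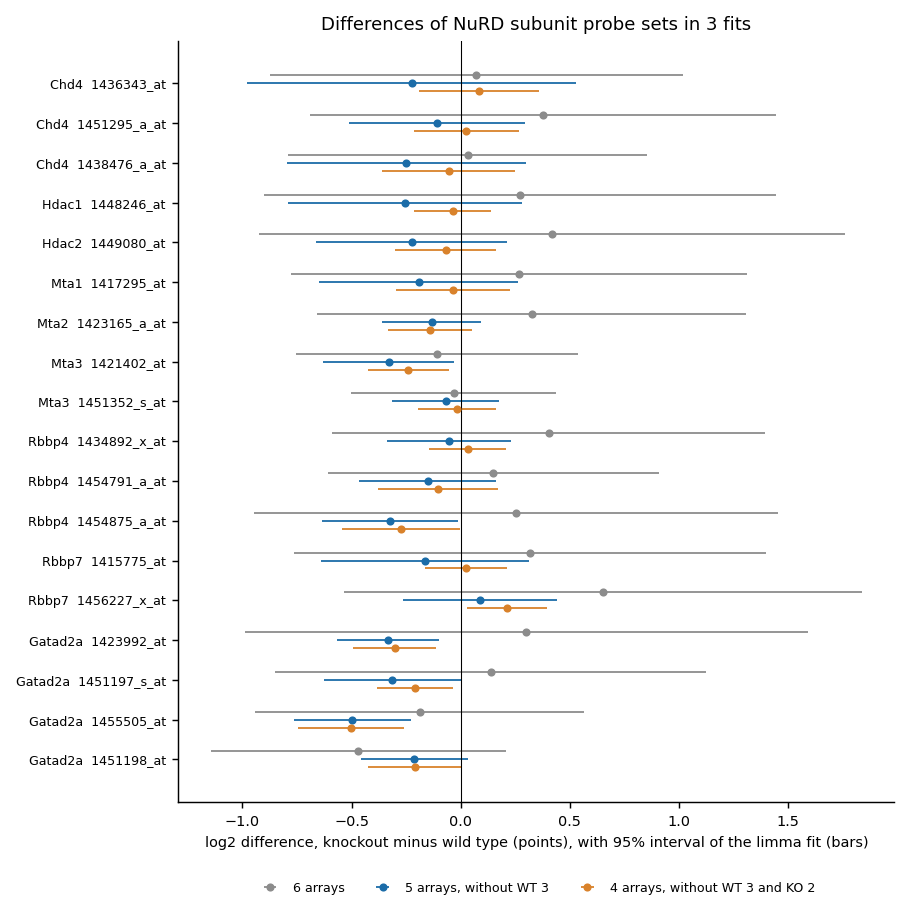
Log2 difference between knockout and wild type (horizontal axis) for each subunit probe set (vertical axis), with its 95% interval in the limma fit of 6 arrays (grey), of 5 arrays without wild-type replicate 3 (blue) and of 4 arrays without knockout replicate 2 as well (orange). With 6 arrays every interval spans 0; with 4 arrays those of 3 of the 4 Gatad2a probe sets lie below 0, as do those of a probe set each of Mta3 and Rbbp4, while that of a Rbbp7 probe set lies above 0.

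Chd4, the motor that remodels nucleosomes, was measured by 3 probe sets. The brightest gave 8.96, 9.26 and 8.22 on wild-type replicates 1, 2 and 3 and 9.26, 8.27 and 9.13 on knockout replicates 1, 2 and 3. The groups overlapped, and wild-type replicate 3 and knockout replicate 2 were both low, at -0.89 and -0.92 from the mean of the other arrays of their group. The log2 difference was 0.07 (SE 0.39) with 6 arrays, -0.22 (SE 0.31, adjusted p = 0.696) with 5 and 0.08 (SE 0.12, adjusted p = 0.652) with 4. The other 2 Chd4 probe sets overlapped between groups as well, at 0.38 and 0.03 with 6 arrays, -0.11 and -0.25 with 5 and 0.03 and -0.05 with 4. With 4 arrays the interval of the brightest probe set ran from -0.19 to 0.36.

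Hdac1 and Hdac2 encode the deacetylases of the complex, which also serve in other repressors. Hdac1 was at 8.89, 8.85 and 7.30 in wild type and at 8.82, 8.18 and 8.85 in knockout. Knockout replicates 1 and 3 thus lay close to wild-type replicates 1 and 2, and knockout replicate 2 was at -0.66 from the mean of the other knockout arrays. The log2 difference of Hdac1 was 0.27 (SE 0.49, adjusted p = 0.856) with 6 arrays, -0.25 (SE 0.22, adjusted p = 0.526) with 5 and -0.04 (SE 0.07, adjusted p = 0.765) with 4. Hdac2 was at 7.04, 7.02 and 5.10 in wild type and at 6.84, 6.49 and 7.07 in knockout. Its value on wild-type replicate 3 was the farthest below the other wild-type arrays of any subunit probe set, at -1.93. The log2 difference of Hdac2 was 0.42 (SE 0.56) with 6 arrays, -0.22 (SE 0.18, adjusted p = 0.494) with 5 and -0.07 (SE 0.10, adjusted p = 0.659) with 4.

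The scaffold genes Mta1, Mta2 and Mta3 differed in how their arrays fell. Mta1 was at 7.76, 7.49 and 6.24 in wild type and at 7.53, 7.12 and 7.65 in knockout. The groups overlapped, with a log2 difference of 0.27 (SE 0.43, adjusted p = 0.842) with 6 arrays, -0.19 (SE 0.19, adjusted p = 0.573) with 5 and -0.04 with 4. Mta2 was at 7.33, 7.42 and 6.0 in wild type and at 7.28, 7.26 and 7.19 in knockout. Its knockout arrays were close together, with an SD of 0.05 (n = 3), and all lay just below wild-type replicates 1 and 2. The log2 difference of Mta2 was 0.32 (SE 0.41) with 6 arrays, -0.13 (SE 0.09, adjusted p = 0.441) with 5 and -0.14 (SE 0.08, adjusted p = 0.256) with 4.

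Mta3 was measured by a pair of probe sets, both with a negative difference in both fits; whether the pair differed in size was not tested. The brighter gave 7.97, 8.04 and 7.33 in wild type and 7.79, 7.49 and 7.73 in knockout, with every knockout array below wild-type replicates 1 and 2 but above replicate 3. Its log2 difference was -0.11 (SE 0.27, adjusted p = 0.888) with 6 arrays, -0.33 (SE 0.12, adjusted p = 0.202) with 5 and -0.24 (SE 0.08, adjusted p = 0.077) with 4. The other Mta3 probe set gave 7.38, 7.42 and 7.30 in wild type and 7.41, 7.23 and 7.36 in knockout. It had the narrowest range of the 18 over the 6 arrays, from 7.23 to 7.42, and its log2 difference was -0.03 with 6 arrays and -0.07 (SE 0.10, adjusted p = 0.717) with 5.

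Rbbp4 and Rbbp7 encode closely related histone-binding proteins that are also part of other chromatin complexes. In RefSeq's gene order Rbbp4 and Hdac1 lie on 1 chromosome with 7 protein-coding genes between them. Each gene has a probe set whose name ends in _x_at, a suffix for probes that can match similar transcripts, so the values of these 2 probe sets are uncertain. The Rbbp4 probe set 1434892_x_at was at 10.47, 10.50 and 9.12 in wild type and at 10.53, 10.26 and 10.50 in knockout. The groups overlapped, with a log2 difference of 0.40 (SE 0.41, adjusted p = 0.829) with 6 arrays and -0.05 (SE 0.12, adjusted p = 0.816) with 5. The Rbbp4 probe set 1454875_a_at was at 7.02, 7.12 and 5.34 in wild type and at 6.94, 6.65 and 6.65 in knockout. There every knockout array lay below wild-type replicates 1 and 2, with a log2 difference of 0.25 (SE 0.50) with 6 arrays, -0.32 (SE 0.13, adjusted p = 0.218) with 5 and -0.28 (SE 0.11, adjusted p = 0.135) with 4. The remaining Rbbp4 probe set gave 0.15 with 6 arrays and -0.15 with 5, and its groups overlapped.

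Rbbp7 was measured by 2 probe sets. The brighter was at 10.42, 10.52 and 9.03 in wild type and at 10.47, 9.93 and 10.52 in knockout, with a log2 difference of 0.32 (SE 0.45, adjusted p = 0.83) with 6 arrays, -0.16 (SE 0.19, adjusted p = 0.649) with 5 and 0.02 (SE 0.08, adjusted p = 0.862) with 4. The second, 1456227_x_at, was at 10.03, 10.03 and 8.34 in wild type and at 10.20, 9.87 and 10.29 in knockout. It was the one subunit probe set with a positive difference with 5 arrays, at 0.09 (SE 0.14, adjusted p = 0.743), and was at 0.65 (SE 0.49, adjusted p = 0.829) with 6. With 4 arrays it was at 0.21 (SE 0.08, adjusted p = 0.1), which did not pass the threshold. Knockout replicate 2 lay below the other knockout arrays on both Rbbp7 probe sets, at -0.56 and -0.37 from their mean.

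Gatad2a was measured by 4 probe sets, and on each of them all 3 knockout arrays lay below wild-type replicates 1 and 2. Over the 18 subunit probe sets 7 had this order (38.9%), against 31.8% of all tested probe sets, so the subunits as a group were near the background. The other 3 belonged to Mta2, Mta3 and Rbbp4. The brightest Gatad2a probe set, 1423992_at, was at 9.28, 9.31 and 7.40 in wild type and at 9.05, 8.90 and 8.93 in knockout. Without wild-type replicate 3 the groups did not overlap, and knockout replicate 2 was at -0.09 from the mean of the other knockout arrays. Its log2 difference was 0.30 (SE 0.54, adjusted p = 0.853) with 6 arrays and -0.33 (SE 0.10, adjusted p = 0.138) with 5, a level 1.26-fold lower in knockout with a 95% interval from 1.07-fold to 1.48-fold. With 4 arrays it was -0.30 (SE 0.08, adjusted p = 0.0441).

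The Gatad2a probe set 1451197_s_at was at 8.27, 8.27 and 6.92 in wild type and at 8.04, 7.75 and 8.08 in knockout, with a log2 difference of 0.14 (SE 0.41, adjusted p = 0.909) with 6 arrays and -0.31 (SE 0.13, adjusted p = 0.233) with 5. The dimmer probe set 1455505_at was at 5.67, 5.85 and 4.83 in wild type and at 5.17, 5.28 and 5.35 in knockout. Its log2 difference was -0.19 (SE 0.31) with 6 arrays, -0.50 (SE 0.11, adjusted p = 0.0874) with 5 and -0.50 (SE 0.10, adjusted p = 0.019) with 4. The dimmest, 1451198_at, was at 5.39, 5.25 and 6.09 in wild type and at 5.17, 5.10 and 5.04 in knockout. It was the only subunit probe set on which wild-type replicate 3 was the highest array, and the only one with all knockout arrays below all wild-type arrays, an order found for 5.72% of all tested probe sets. Its log2 difference was -0.47 (SE 0.28, adjusted p = 0.829) with 6 arrays and -0.21 (SE 0.10, adjusted p = 0.281) with 5. The dimmer pair lies close to the filter cutoff of 5.18, and the values came without detection calls. All 3 knockout values of 1451198_at were under that cutoff, so it entered the test through its wild-type values, highest on wild-type replicate 3. The order of its groups is therefore not independent of the filter.

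Without wild-type replicate 3 and knockout replicate 2, the limma fit called 2 of the 18 subunit probe sets, both of Gatad2a and both lower, while 10.3% of all tested probe sets were called lower in the same fit. With array quality weights, which gave wild-type replicate 3 a weight of 0.0288 with 6 arrays, 1 Gatad2a probe set was called lower, against 9.96% of all tested. With such weights and 5 arrays, knockout replicate 2 had a weight of 0.13, and 4 subunit probe sets were called lower, 3 of Gatad2a and 1 of Mta3, against 16.6% of all tested. The subunits' share of calls was 11.1%, 5.56% and 22.2% in these fits.

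**Figure D3:**
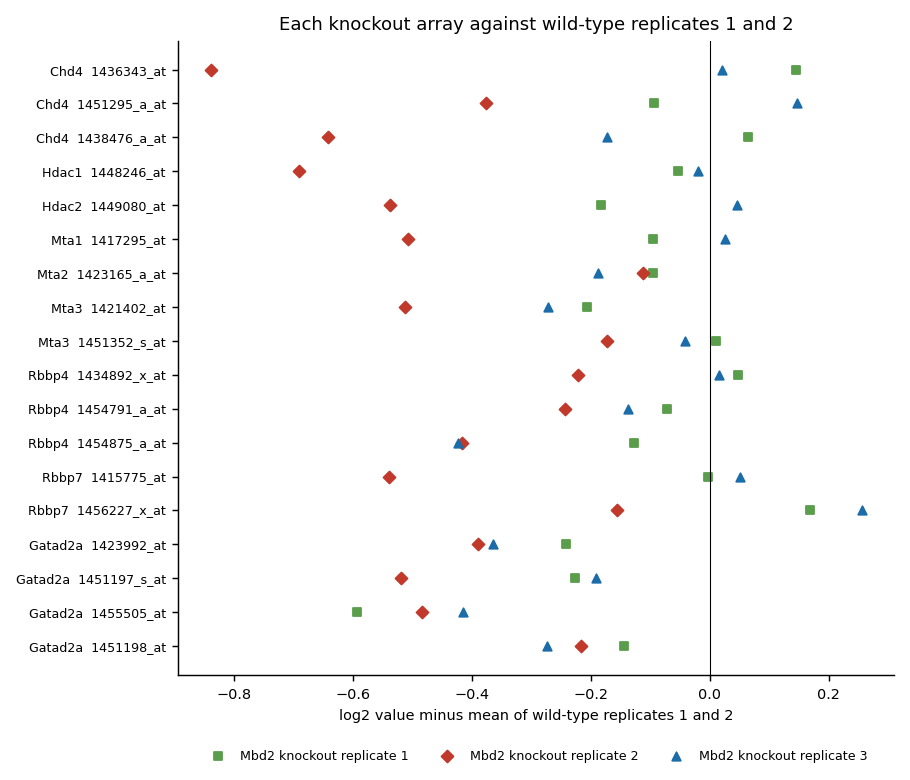
Each knockout array's log2 value minus the mean of wild-type replicates 1 and 2 (horizontal axis) for each subunit probe set (vertical axis). Knockout replicate 2 (red diamonds) lies lowest of the 5 arrays for 14 of 18 probe sets. All 3 knockout arrays lie below 0 for 9 of the 18 (39.3% of all tested probe sets): the 4 of Gatad2a, 2 of Rbbp4 and 1 each of Hdac1, Mta2 and Mta3.

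The place of knockout replicate 2 was set beside that of the other knockout arrays. The mean of knockout replicates 1 and 3 lay below that of wild-type replicates 1 and 2 for 13 of 18 subunit probe sets (72.2%), and for 57.1% of all tested. The median difference of the subunits was -0.06 without knockout replicate 2 and -0.22 with it. Over all tested probe sets it was -0.03 and -0.06. Over the 14 probe sets outside Gatad2a, knockout replicate 2 stood between -0.92 and 0.03 from the mean of the other knockout arrays. For Gatad2a this distance was -0.31 to 0.02. On the same knockout array the summed signals of granulocyte, monocyte, B cell and CD8 T and NK cell markers were highest, and that of T cell markers lowest. Single genes could go the other way, as some granulocyte genes did. The part of these cells was not tested.

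Other genes of NuRD and its partners were read from a list of 16 genes, of which 11 were tested. With 5 arrays, 1 passed, Mbd2 itself, and the median log2 difference was -0.04, against -0.06 over all 8190 genes tested, of which 1.58% passed. With 6 arrays the medians were 0.19 and 0.16. Mbd3, the MBD protein of the Mbd2-free form, was at 7.55, 7.50 and 7.09 in wild type and at 7.66, 7.47 and 7.58 in knockout. The groups overlapped, with a log2 difference of 0.19 (SE 0.22) with 6 arrays and 0.04 (SE 0.10, adjusted p = 0.825) with 5. Gatad2b, the paralog of Gatad2a, was at 7.43, 7.70 and 7.61 in wild type and at 7.60, 7.09 and 7.56 in knockout, with a log2 difference of -0.15 (SE 0.19, adjusted p = 0.67) with 5 arrays and 0.02 without knockout replicate 2 as well. Bcl11b, a T cell transcription factor that binds NuRD, was at -0.57 (SE 0.25, adjusted p = 0.25) with 5 arrays and -0.32 without knockout replicate 2 as well.

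Complexes that share the deacetylases were described in the same way. Of 9 tested genes of the Sin3 complex, another repressor built on Hdac1 and Hdac2, 6 were lower and 3 higher with 5 arrays. The median was -0.24, and in the limma fit 1 passed the threshold as higher and 1 as lower. With 6 arrays 8 of the 9 were higher, with a median of 0.20, and 0 passed in the limma fit. Of all genes tested, 67 passed the threshold as higher and 62 as lower with 5 arrays. Sap30, a Sin3 subunit, was at 6.77, 6.82 and 5.51 in wild type and at 8.02, 8.21 and 7.66 in knockout. All knockout arrays lay above all wild-type arrays, with a log2 difference of 1.59 (SE 0.41, adjusted p = 0.617) with 6 arrays and 1.16 (SE 0.17, adjusted p = 0.0447) with 5. Arid4b, a chromatin-binding Sin3 subunit, was at 8.33, 8.46 and 5.74 in wild type and at 7.76, 7.64 and 7.74 in knockout. Its log2 difference was 0.20 (SE 0.73, adjusted p = 0.926) with 6 arrays and -0.68 (SE 0.10, adjusted p = 0.0417) with 5, so its direction turned with wild-type replicate 3. Both calls held without knockout replicate 2 and were lost without each of the other 4 arrays, where Sap30 stood at 1.14 to 1.32 (adjusted p = 0.0568 to 0.385) and Arid4b at -0.75 to -0.62 (adjusted p = 0.12 to 0.411).

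Of 7 tested genes of the CoREST and MiDAC deacetylase complexes none passed in either limma fit, and the median was -0.11 with 5 arrays (-0.19 with 6). With 5 arrays 1 was lower at an unadjusted p under 0.05, against 14.6% of all tested probe sets. Phf21a, a CoREST subunit, was at -0.54 (SE 0.12, adjusted p = 0.0928) and Zmym3 at -0.17 (adjusted p = 0.371). Of 8 tested genes of the other histone deacetylases and the NCoR complex none passed in the limma fit with 5 arrays, 0 had an unadjusted p under 0.05, and the median was -0.15 (-0.01 with 6). The smallest p there belonged to Hdac11 at 0.22 and Gps2 at -0.26. For Hdac11 the mean was 4.91 over wild-type replicates 1 and 2 and 5.13 in knockout, both under the filter cutoff of 5.18. It passed the filter only through wild-type replicate 3, at 8.44, and its difference was -0.96 with 6 arrays. Without knockout replicate 2 as well, Gps2 was at -0.12.

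Partners of Rbbp4 and Rbbp7 outside NuRD, such as the Polycomb repressive complex 2, had a median of -0.12 over 13 tested genes with 5 arrays, and none passed in the limma fit. Of the 13, 2 were lower at an unadjusted p under 0.05, against 14.6% of all tested probe sets. The direction of the list's median turned with wild-type replicate 3: with 6 arrays it was 0.46, with 10 of 13 higher. Phf1, an accessory subunit of that complex, was at -0.46 (SE 0.10, adjusted p = 0.0842), and Ezh1, one of its methyltransferases, at -0.35 (SE 0.09, adjusted p = 0.108). Of 7 tested chromodomain and ISWI remodellers none passed in the fit with 5 arrays, and 1 was lower at an unadjusted p under 0.05 (14.6% of all tested probe sets were). Their median was -0.18, against 0.36 with 6 arrays, where 6 of the 7 were higher. Baz2a, a partner of the ISWI motor, was at -0.26 (adjusted p = 0.173) and Chd6 at -0.56 (adjusted p = 0.236), or -0.34 without knockout replicate 2 as well.

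Genes of proliferating cells were read beside the subunits. With 5 arrays, 15 of 16 tested were higher and 1 lower, 0 passed the threshold in the limma fit, 8 had an unadjusted p under 0.05, all higher, and the median was 0.38. Of all tested probe sets 6.95% were higher at that p. Mki67, a marker of cycling cells, was at 8.04, 8.39 and 5.81 in wild type and at 9.07, 8.85 and 9.07 in knockout, with a log2 difference of 0.78 (SE 0.14, adjusted p = 0.0612) with 5 arrays. Rrm2, which makes DNA precursors, was at 0.61 (SE 0.13, adjusted p = 0.0821). The 9 NuRD genes, each by its brightest probe set, were all lower with 5 arrays, with a median of -0.22, while 59.9% of all genes tested were lower. With 6 arrays 8 of the 9 were higher, with a median of 0.30, and 0.87 for the proliferation genes.

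**Figure D4:**
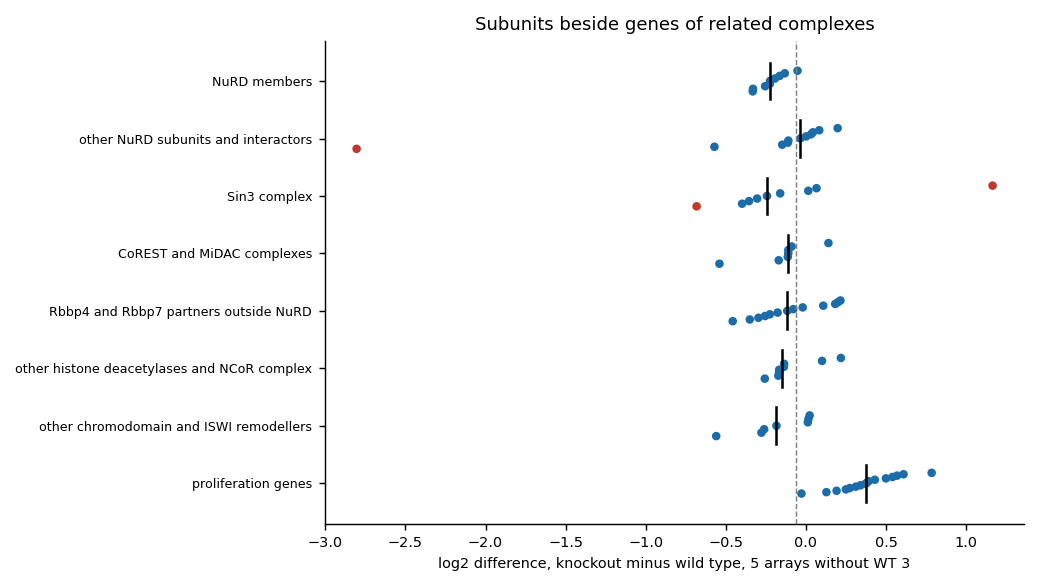
Log2 difference between knockout and wild type with 5 arrays (horizontal axis) for the tested genes of each list (rows; points are genes, red where adjusted p is under 0.05, and black bars are list medians); the dashed line is the median over all tested genes. The NuRD genes lie between -0.33 and -0.05, and the called genes are Mbd2, Arid4b and Sap30.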

How the data were processed

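RNA of 6 samples was amplified, labelled with biotin and hybridised to single-colour arrays. Each deposited value is the log2 expression of a probe set, made by the authors with RMA per the submitters' processing notes; the labels do not state its software, its version or the arrays it was run on together. Of 22690 probe sets, 64 controls were left out. Symbols came from the platform annotation, updated by gene ID through RefSeq (GRCm38.p6). Probe sets in the lowest 40% by mean over the 6 arrays (under 5.18) were left out. The other 13576 went into lmFit and eBayes of limma 3.58.1 (R 4.3.3, group as the only term) and p-values adjusted by Benjamini-Hochberg over all of them, with a threshold of 0.05. In lists, a gene is its brightest tested probe set. The code was tested on simulated data. Figures used matplotlib 3.10.9.

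All 18 subunit probe sets are named, and Mbd2; of other lists every called gene and the 2 with the smallest p with 5 arrays; of marker lists up to 3 of the brightest. Mbd3, Gatad2b and Foxp3 fall outside this rule and were chosen after their values were seen. Members and lists were chosen with earlier results of these data known. Array totals give no depth, and the number of arrays limits the precision. The deviations of same-numbered arrays had correlations of 0.15, -0.09 and -0.14. With 3 arrays per group, wild-type replicate 3 among them, these values cannot decide whether same-numbered arrays were paired.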

Additional observations from a re-analysis of the deposited data

How the results depend on the processing

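The count of subunit probe sets past the threshold stayed at 0 with 6 arrays without the filter, with a filter on the lowest 60% (16 probe sets left), with a trended robust variance, after quantile normalization again, with median centring and at an adjusted p under 0.1. It was 1 with array quality weights and 2 without wild-type replicate 3 and knockout replicate 2. With 5 arrays it was 4 with array quality weights, 1 at an adjusted p under 0.1, 4 at an unadjusted p under 0.05 and 0 to 2 with each array left out, the 2 being without knockout replicate 2. A lone wild-type array in such fits was assumed to vary like the other group. With the replicate number as a block the counts were 0 in both fits, the medians 0.26 and -0.28, and all tested calls 10 against 14 and 562 against 190. The subunit median with each array left out ran from -0.22 to 0.52 with 6 arrays and from -0.281 to -0.0611 with 5; after quantile normalization again it was -0.03 with 6 arrays (0.06 over all probe sets) and -0.19 with 5, and with array quality weights and 6 arrays it was -0.12.

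Some alternatives cannot move a log2 difference: the changed filters, the trended variance and, with 6 arrays, the replicate block. They are counted among the alternatives here. The direction of single subunits with 6 arrays, each by its brightest probe set, turned in 27 of 131 alternatives, and with 5 arrays in 5 of 113. With 6 arrays it turned with array quality weights (Chd4 -0.0529, Hdac1 -0.0467, Hdac2 -0.11, Mta2 -0.15, Rbbp7 -0.045, Gatad2a -0.28), after quantile normalization again (Chd4 -0.29, Hdac1 -0.012, Rbbp7 -0.0745, Gatad2a -0.00981), without both arrays (Hdac1 -0.0363, Hdac2 -0.0681, Mta1 -0.0354, Mta2 -0.14, Gatad2a -0.30) and, for the mean of its probe sets, for Gatad2a -0.0553. With each array left out the log2 differences ran over 0 for Chd4 -0.22 to 0.38, Hdac1 -0.25 to 0.54, Hdac2 -0.22 to 0.74, Mta1 -0.19 to 0.57, Mta2 -0.13 to 0.57, Mta3 -0.33 to 0.0206, Rbbp4 -0.0527 to 0.64, Rbbp7 -0.16 to 0.58, Gatad2a -0.33 to 0.62. With 5 arrays it turned with array quality weights (Chd4 0.0896, Rbbp4 0.033), and with each array left out the ranges were Chd4 -0.41 to 0.083, Rbbp4 -0.10 to 0.032, Rbbp7 -0.27 to 0.0232. The cause was not tested. Gatad2a stayed lower with 5 arrays, by its brightest probe set, under every alternative run, including those that cannot move its difference.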
